A study of Caenorhabditis elegans with 15 samples.

Results

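The comparison described here is that of *fbxa-215* mutants with wild-type N2 as young adults at 25 °C, the warm end of the range in which the nematode *C. elegans* is kept. Its members are the 7 libraries of the deposited 25 °C count table, 3 of mutants and 4 of N2, out of 15 young adult libraries in all; the other 8, 4 of each strain at 20 °C, served only as a reference. The mutants were strain SX3678, *fbxa-215*(syb4404) IV, in which the coding sequence was deleted by CRISPR editing and which was outcrossed to N2. Both strains grew on HB101 bacteria from synchronised L1 larvae and were collected about 36 h after plating at 25 °C and 48 h after plating at 20 °C. Each mutant library comes from this 1 deletion allele, and the study's methods speak of biological replicates without saying whether they were separate cultures, so p-values measure only the spread between these libraries. What was sequenced was polyadenylated RNA of whole animals, in which fewer cells of a type and less RNA per cell cannot be told apart.

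F-box proteins are the part of SCF ubiquitin ligases that picks the substrate: the F-box binds the adaptor Skp1, which links it to a cullin scaffold and a RING finger protein, and a second domain holds the protein to be tagged with ubiquitin. *C. elegans* has a greatly expanded set of F-box genes, of which fbxa is one large family. *fbxa-215* is a member that carries, beside its F-box, a helix-turn-helix domain derived from a transposase, for which the study detected no binding to the transposon-end DNA it tested. The tagged protein was seen by the study in germ granules, the RNA-rich bodies next to germline nuclei, in embryos, and was dispersed in the adult germline. The comparison at 25 °C addresses which RNAs differ when this gene is missing under warm growth.

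The 7 libraries held from 10842744 to 16150451 estimated counts. Values are given as CPM, counts scaled to a TMM-normalized library total of 1000000. In these units the floor of 3 counts was 0.187 to 0.279 CPM, a limit that covers counting error only. Spearman correlations across genes, which are not independent replicates, lay between 0.987 and 0.993 within N2, between 0.987 and 0.992 within mutants and between 0.968 and 0.988 between the strains. The libraries of the 2 strains separated along the first axis of the multidimensional scaling, where N2 replicate 4 lay farthest on the N2 side (1.72, against 0.19 to 0.68 for the other N2 libraries). Mutant replicate 1 was the mutant library nearest to N2 (-0.83, against -1.04 and -0.95). Young adult markers were present in every library: summed levels of 6 vitellogenin genes (64545 to 78498 CPM), 10 sperm genes (691 to 870.0 CPM) and 7 oocyte genes (2295 to 2989 CPM) stood far above 4 moult genes (9.38 to 26.2 CPM).

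Of 13510 genes tested, 177 (1.31%) were higher and 83 (0.614%) lower in mutants at a Benjamini-Hochberg FDR under 0.05 in edgeR's quasi-likelihood test and a fold change above 2; such genes are referred to as called. With the FDR alone, 942 genes (6.97%) rose and 692 (5.12%) fell, and below "rose" and "fell" mean only that a gene passed that FDR. Libraries of the 2 strains did not overlap for 13.5% of genes tested in the higher and 11.2% in the lower direction. The median log2 fold change, always mutants over N2, was 0.00 over all genes tested. The median of the called genes was 1.45 for those higher and -1.30 for those lower. Most were of low level, with a mean under 5 CPM in both strains for 103 of the 177 and 38 of the 83. All but 13 of the 260 called genes were protein-coding, and 11 of the 83 lower genes were pseudogenes. Among 406 pseudogenes tested 11 were called lower and 1 higher, and among 13072 protein-coding genes 72 were called lower and 175 higher. Many calls were lost when 1 library was left out: 58 of the 177 and 22 of the 83 held in all 7 fits that each left out 1 library. Such fits also have fewer libraries to test with. In the full data the libraries of the 2 strains did not overlap for 173 of the 177 and 80 of the 83. As these genes were chosen by FDR and fold change in the same libraries, this follows largely from the choice. The count of 260 fell to 171 without N2 replicate 4, to 134 without mutant replicate 2 and to 127 without mutant replicate 3, and it was 524 without mutant replicate 1, of which 244 (1.77%) were higher and 280 (2.03%) lower. With the FDR alone, 12.3% of genes rose and 13.3% fell without mutant replicate 1, against 2.25% to 5.30% and 1.16% to 3.83% in the other 6 fits without 1 library. Of the 191 genes named here 48 overlap another annotated gene, among them *abu-6*, *nspc-15*, *clik-1*, *nuo-5*, *dhs-26*, *srsx-25* and *ZC247.1*, and as the libraries did not keep strand their values are uncertain.

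**Figure D1:**
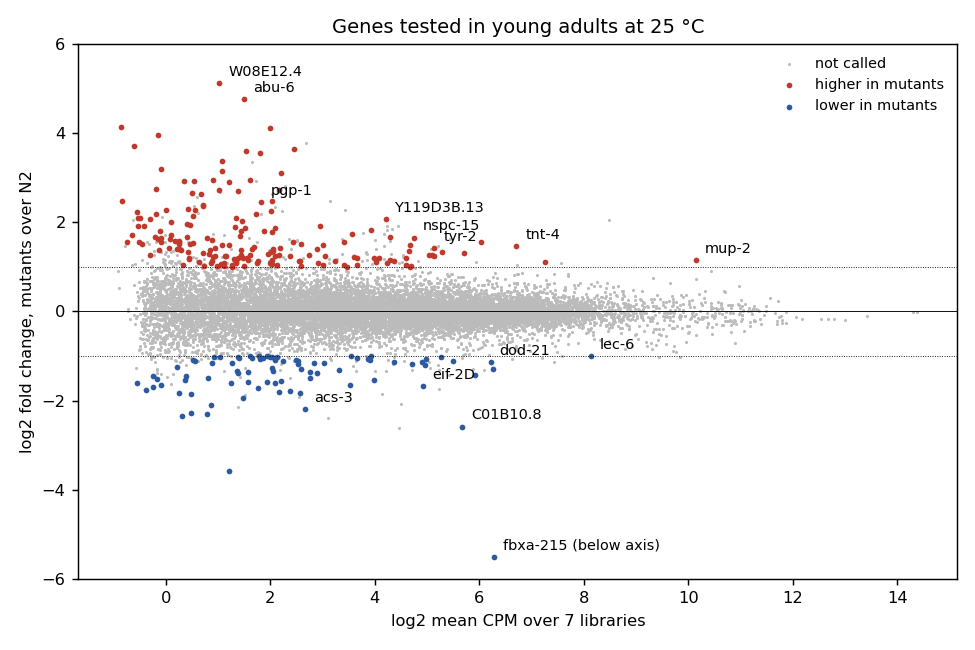
Log2 fold change of mutants over N2 (vertical axis) against log2 mean CPM of the 7 libraries (horizontal axis) for the 13510 genes tested at 25 °C. Red and blue points are the 177 genes called higher and the 83 called lower, dotted lines mark a fold change of 2, and *fbxa-215*, at 0 counts in every mutant library, lies below the axis. Abundant called genes are few, and *mup-2* and *lec-6* are the most abundant of each direction.

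The deleted gene was checked first. On WBcel235, the 5 exons of *fbxa-215* (WBGene00012879) span bases 13665364 to 13666909 of chromosome IV, minus strand. *fbxa-215* was at 135, 127, 134 and 147 CPM in the 4 N2 libraries and at 0, 0 and 0 CPM in the 3 mutant libraries. No read was assigned to it in any mutant library, and N2 was at least 534-fold higher when each mutant library was set to the floor of 3 counts. Of its neighbours on the chromosome, chosen after values were seen, 1 did not pass the FDR and the other fell. *Y45F10C.4* was at 38, 49.2, 49.5 and 42.7 CPM in N2 and 62.8, 40.3 and 39.5 CPM in mutants (log2 fold change 0.09, FDR 0.78). *Y45F10C.2* fell, at 4.67, 5.95, 7.04 and 7.71 CPM in N2 and 5.1, 2.84 and 2.49 CPM in mutants (log2 fold change -0.87, FDR 0.044). The fall of *Y45F10C.2* was lost without any 1 of N2 replicates 2, 3 and 4 or of mutant replicates 2 and 3.

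A few other genes of the ubiquitin ligase machinery passed the test, with rises no more frequent than among all genes tested, and some proteasome genes fell. Over all genes tested 6.97% rose and 5.12% fell, and 1.31% were called higher and 0.614% lower. Of 93 fbxa genes tested, 4 rose and 2 fell, and 3 were called higher and 1, *fbxa-215* itself, lower. The 3 called higher were of low level. *fbxa-155* stood at 2.12, 2.05, 2.14 and 1.35 CPM in N2 and 5.01, 4.82 and 4.04 CPM in mutants, with no overlap (log2 fold change 1.27, SE 0.23, FDR 0.0046), a call that held in all 7 fits without 1 library. That of *fbxa-61* (log2 fold change 1.40, FDR 0.029) was lost without N2 replicate 2, 3 or 4 or mutant replicate 2. The median of the family was -0.06. Summed over the family, fbxa RNA in mutants differed from N2 by -26.3%, at 622, 627, 662 and 697 CPM in N2 and 484, 502 and 455 CPM in mutants, and *fbxa-215* accounted for 136 of the 652 CPM of the N2 mean. Among 19 genes of the SCF core, the Skp1-related, cullin and RING subunits, only *skr-3*, 1 of the Skp1-related adaptors, passed the FDR (log2 fold change 0.42, FDR 0.024), and it did not without N2 replicate 1 or 2 or mutant replicate 2 or 3. Of 33 proteasome subunits, 5 fell and none was called, among them *rpt-4*, an ATPase of the regulatory particle (log2 fold change -0.34, FDR 0.026), and *pbs-4*, a subunit of the catalytic core (log2 fold change -0.32, FDR 0.038). The proteasome count was 0 without any 1 of N2 replicates 2, 3 and 4 or mutant replicates 2 and 3 and 14 without mutant replicate 1. Summed proteasome RNA was at 6161, 6172, 6174 and 6462 CPM in N2 and 6122, 5941 and 5979 CPM in mutants, without overlap. Of 51 MATH and BTB domain genes, whose products include adaptors of the other cullin ligases, 3 rose and 3 fell. *math-38* (log2 fold change 1.23, FDR 0.025) was called higher and *bath-26* (log2 fold change -1.03, FDR 0.027) lower, each lost in 5 of the 7 fits without 1 library. Of 19 fbxb and fbxc genes only *fbxc-50* passed, and fell (log2 fold change -0.47, FDR 0.015), though not without mutant replicate 2 or 3.

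Beside *fbxa-215*, the most clearly lower genes were those of a predicted methyltransferase and of a translation factor. *C01B10.8*, listed as metl-13 in the annotation, has a human namesake, METTL13, that methylates translation elongation factor eEF1A. *C01B10.8* was at 79.5, 78.8, 73.1 and 87 CPM in the 4 N2 libraries and at 11.2, 14.1 and 14.4 CPM in the 3 mutant libraries. The highest mutant library lay far below the lowest N2 library. For *C01B10.8* the log2 fold change was -2.58 (SE 0.11, FDR 3.1e-09). *eif-2D* encodes a factor that, in other species, brings initiator tRNA to the ribosome and helps to recycle its subunits. *eif-2D* was at 41.0, 38.1, 45.7 and 46.4 CPM in the 4 N2 libraries and at 15.3, 12.7 and 12.4 CPM in the 3 mutant libraries. For *eif-2D*, again without overlap, it was -1.67 (SE 0.12, FDR 2.1e-06). Both calls held in all 7 fits without 1 library. Of 44 translation factors, *eif-2D* was the only one called, 4 rose, including *eif-3.K* (0.38, FDR 0.023), and 5 fell in all, and the median was -0.08. *eef-1A.2* rose, 1 of the 2 genes for the elongation factor eEF1A: 526, 499, 523 and 444 CPM in N2 and 709.8, 921 and 872 CPM in mutants, without overlap (log2 fold change 0.74, SE 0.09, FDR 3.7e-04). The more abundant *eef-1A.1*, chosen after values were seen, was at 8491, 8185, 8444 and 9648 CPM in N2 and 7695, 8364 and 6837 CPM in mutants (log2 fold change -0.19, FDR 0.14), which did not pass.

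Genes of protein synthesis as a whole showed small shifts, more of them down than up. Log2 fold changes were above 0 in 17 of 44 translation factors, 20 of 78 cytosolic ribosomal protein genes and 1 of 20 aminoacyl-tRNA synthetases. The share above 0 among all genes tested was 50.5%. Summed translation factor RNA was at 24360 to 26186 CPM in N2 and 22002 to 23918 CPM in mutants, without overlap. The sums of the other lists named in this comparison of signs overlapped. Of 78 cytosolic ribosomal protein genes 2 rose, *rpl-24.2* (0.39, FDR 0.0038) and *rpl-20* (0.39, FDR 0.022), and 2 fell, *rpl-11.1* (-0.53, FDR 0.048) and *rpl-25.2* (-0.40, FDR 0.042), these values being log2 fold changes. The median was -0.13, and -0.04 with offsets for gene length, described below. Without mutant replicate 1, 30 of these genes fell and 9 rose, where 13.3% of all genes tested fell and 12.3% rose. Of 20 aminoacyl-tRNA synthetases, *pars-1* (-0.29) and *wars-1* (-0.26) fell, and neither did without mutant replicate 2 or 3. Of 45 respiratory chain and ATP synthase subunits 1 rose, *sdhb-1* (0.34, FDR 0.04), and 5 fell, including *cox-6A* (-0.34, FDR 0.025), none called. The subunit *nuo-5* of complex I was at 436, 468, 458 and 475 CPM in N2 and 393, 340.1 and 330.5 CPM in mutants (log2 fold change -0.37, FDR 0.0072), and its fall held in all 7 fits without 1 library. Without mutant replicate 1 the number of respiratory genes that fell was 20, and without N2 replicate 2, 3 or 4 or mutant replicate 2 or 3 it was 1. *timm-17B.2*, a subunit of the translocase of the mitochondrial inner membrane chosen after values were seen, was called lower, at 19, 27.1, 22.6 and 19.5 CPM in N2 and 9.76, 6.55 and 6.27 CPM in mutants (log2 fold change -1.55, FDR 2.7e-04).

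Many muscle filament genes rose and none fell. Contraction is run by sliding of actin filaments along myosin, and the troponin complex and its relatives on the actin filament set when it may start. Of 30 tested 17 rose, 28 had a log2 fold change above 0, and the median was 0.38. The count was lowest without mutant replicate 3 (9) and mutant replicate 2 (11). *mup-2*, the troponin T of body wall muscle, was the most abundant of all genes called higher. *mup-2* was at 718, 789.6, 709 and 774 CPM in the 4 N2 libraries and at 1735, 1589.7 and 1641 CPM in the 3 mutant libraries. The groups were far apart, with a log2 fold change of 1.15 (SE 0.07, FDR 3.0e-07). *tnt-4*, a troponin T of the pharynx, was at 59.1, 68.2, 46.3 and 64.8 CPM in N2 and 174, 138 and 182 CPM in mutants (log2 fold change 1.46, SE 0.14, FDR 5.5e-04). These were the 2 called genes of the list, and both calls held in all 7 fits without 1 library.

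Among the other muscle genes that rose, the pharyngeal myosins *myo-2* and *myo-1* had log2 fold changes of 0.84 (FDR 0.0037) and 0.64 (FDR 0.029). Those of body wall muscle were smaller, 0.49 for the myosin *myo-3* (FDR 0.0024) and 0.45 for the paramyosin *unc-15* (FDR 0.018, chosen after values were seen). The main body wall myosin, *unc-54*, also chosen after values were seen, did not pass, at 3300.1, 3292, 2504 and 3361 CPM in N2 and 3691, 3791 and 3526 CPM in mutants (log2 fold change 0.24, FDR 0.11). *clik-1*, whose protein has calponin-like repeats and sits on muscle filaments, was taken up for its low FDR. *clik-1* was at 1033, 1039.9, 914 and 1042 CPM in the 4 N2 libraries and at 1769, 1946 and 1918 CPM in the 3 mutant libraries. It rose by 0.90 on the log2 scale (SE 0.07, FDR 6.0e-06), just short of a fold change of 2, and no library overlapped. When split after seeing the values, 6 of 8 pharyngeal muscle genes rose, with a median of 0.52, and 11 of 23 body wall muscle filament genes, with a median of 0.38. Summed pharyngeal muscle RNA was at 596, 644, 444 and 579 CPM in N2 and 934, 981 and 966 CPM in mutants, and N2 replicate 3 lay below the other N2 libraries in it and in the body wall list. With offsets for gene length, described below, the median of the 30 genes was 0.27 and 15 rose.

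**Figure D2:**
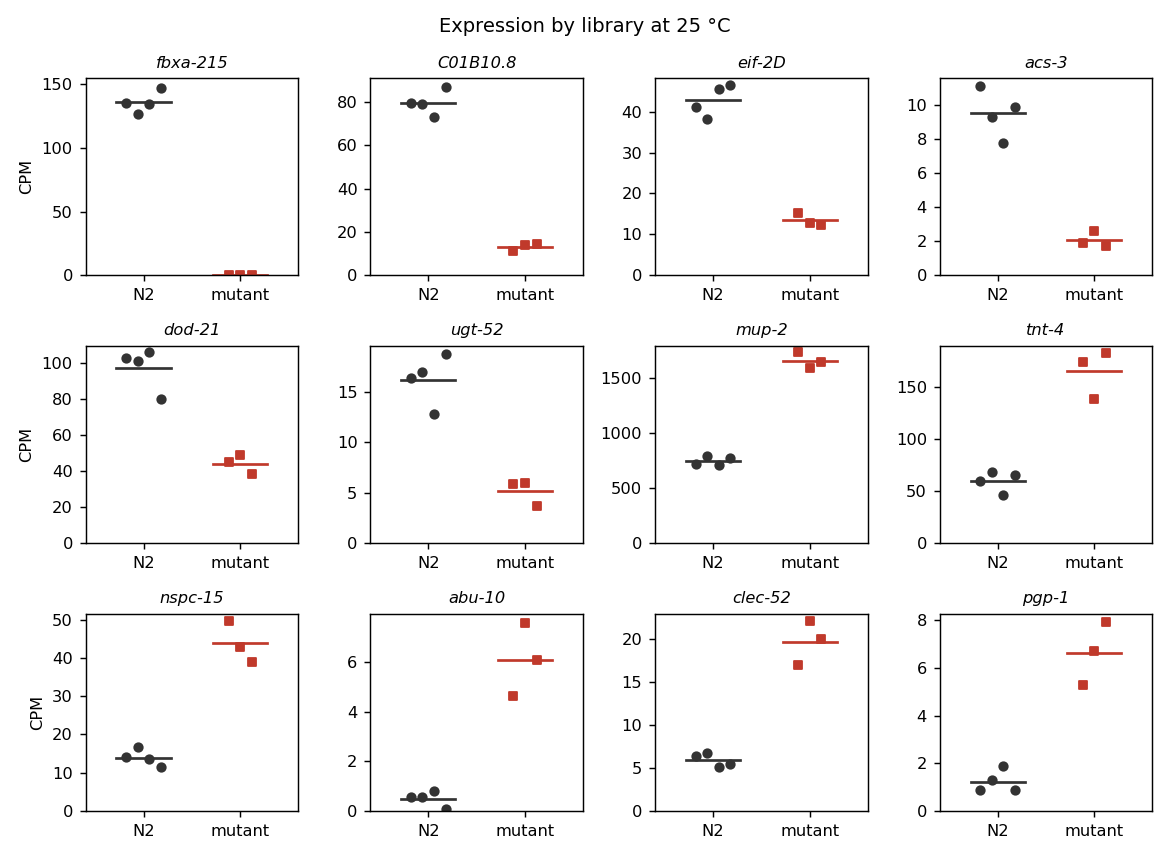
CPM of 12 genes in each library at 25 °C, with N2 in dark circles (4 libraries) and mutants in red squares (3 libraries), horizontal bars at the group means and a separate linear axis from 0 for each gene. In each of the 12 panels the N2 and mutant libraries do not overlap, with *fbxa-215* at 0 in mutants and *mup-2* between 1589.7 and 1735 CPM in mutants against 709 to 789.6 CPM in N2.

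Some neuronal genes rose by small amounts. Among all genes tested, 6.97% rose and 5.12% fell. All 3 neuron markers rose, *unc-13* (log2 fold change 0.35, FDR 0.029), *snb-1* (0.37, FDR 0.021) and *rab-3* (0.48, FDR 0.042; named after values were seen), which act in the release of synaptic vesicles, but none passed without any 1 of N2 replicates 2, 3 and 4 or of mutant replicates 2 and 3. Of 25 synaptic and neurosecretory genes, a list made after values were seen, 6 rose and none fell, led by *egl-19*, a calcium channel that also works in muscle (log2 fold change 0.49, FDR 0.0063). Of 30 FMRFamide-like neuropeptide genes 6 rose and none fell, with a median of 0.21, and the count ranged from 0 without mutant replicate 2 to 8 without mutant replicate 1. The called one was *flp-34*, at 1.43, 1.77, 2.32 and 2.07 CPM in N2 and 3.31, 5.53 and 4.12 CPM in mutants (log2 fold change 1.20, SE 0.26, FDR 0.01), whose call was lost without mutant replicate 2. Of 60 neuropeptide-like protein genes 5 rose, among them *nlp-67* (1.01, FDR 0.025), which was called, and 1 fell, *nlp-10* (-0.55, FDR 0.045). *ins-27* rose without overlap among 15 insulin-like peptides (5.1, 5.39, 4.37 and 3.1 CPM in N2 and 9.40, 8.05 and 9.28 CPM in mutants, log2 fold change 0.98, FDR 0.006), in all 7 fits without 1 library, and *ins-7* fell (-0.52, FDR 0.048) in only 1 of them. Of 18 DEG/ENaC sodium channel genes, *acd-1* was called lower, at 3.92, 3.44, 3.83 and 5.40 CPM in N2 and 0.895, 1.82 and 1.37 CPM in mutants (log2 fold change -1.59, SE 0.28, FDR 0.004), while *deg-1* (0.76) and *del-6* (0.42) rose.

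Among the largest rises were abu and pqn genes. They encode proteins rich in glutamine and asparagine, and many abu genes are known to be expressed around moults in the cells that rebuild the cuticle of the pharynx. All 10 abu genes tested had a log2 fold change above 0, 5 were called higher, and the median was 3.46. *abu-6* was at 0, 0.744, 0.267 and 0 CPM in the 4 N2 libraries and at 4.30, 7.11 and 7.39 CPM in the 3 mutant libraries. N2 replicates 1 and 4 were at 0 in *abu-6*, and the fitted log2 fold change, which depends on how such zeros are treated, was 4.77 (SE 0.64, FDR 0.0032). *abu-10* was at 0.560, 0.558, 0.802 and 0.0795 CPM in N2 and 4.65, 7.58 and 6.10 CPM in mutants (log2 fold change 3.60, SE 0.37, FDR 8.9e-05), and the calls of these 2 genes held in all 7 fits without 1 library. The calls of *abu-8* (3.64, FDR 0.014) and *abu-15* (3.56, FDR 0.016) were lost without mutant replicate 2 or 3, and so was that of *abu-11* (2.73, FDR 0.03), a gene chosen after values were seen, which was also lost without N2 replicate 3. Summed abu RNA was at 4.17, 21.8, 14.4 and 1.75 CPM in N2 and 67.1, 87.2 and 86.9 CPM in mutants. The N2 libraries differed widely among themselves, and N2 replicates 2 and 3 were nearest to mutants.

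Of 48 pqn genes 12 rose and none fell, 6 of them called, with a median of 0.24. *pqn-2* was at 0, 1.67, 0.446 and 0.0795 CPM in N2 and 4.47, 10.9 and 10.2 CPM in mutants (log2 fold change 4.11, FDR 0.034), *pqn-57* rose by 3.38 (FDR 0.044) and *pqn-63* by 2.39 (FDR 0.016) on that scale, and N2 replicate 2 was again the highest N2 library in each. The first 2 calls were lost without N2 replicate 3 or 4 or mutant replicate 2 or 3, and that of *pqn-63* without mutant replicate 3. *pqn-63* lies in a run of 5 called genes among 6 tested on chromosome V (bases 9616031 to 9629214) with *T06E4.10*, *T06E4.9*, *T06E4.14* and *T06E4.12*, whose log2 fold changes ran from 2.39 to 4.13; apart from *pqn-63* and *T06E4.12* they were chosen after values were seen. *T06E4.10* stayed at or under 0.0930 CPM in N2 and was at 0.895, 1.34 and 1.37 CPM in mutants. Of 4 phat genes of the pharyngeal glands, a list made after values were seen, 3 rose, and *phat-4* was at 6.29, 5.86, 7.49 and 3.58 CPM in N2 and 15.9, 19.3 and 15.9 CPM in mutants (log2 fold change 1.56, SE 0.19, FDR 4.6e-04) and held in all 7 fits, whereas the call of *phat-2* (1.37, FDR 0.043) was lost in 5 of them. The summed phat level was at 12.9, 16, 13.2 and 10.1 CPM in N2 and 27.9, 30.5 and 27.8 CPM in mutants.

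Many genes of the nematode-specific peptide families nspb and nspc, whose functions are not known, also rose. Of 24 nspa, nspb, nspc and nspe genes tested, the sperm-linked nspd genes being left out, 13 were called higher, 14 rose, none fell, and the median was 1.16; those that rose were all nspb or nspc genes. *nspc-15* was at 14.1, 16.6, 13.6 and 11.5 CPM in the 4 N2 libraries and at 49.6, 42.9 and 39.0 CPM in the 3 mutant libraries. For *nspc-15* the log2 fold change was 1.65 (SE 0.13, FDR 5.9e-06). *nspc-16* was at 1.74, 1.49, 0.981 and 1.27 CPM in N2 and 9.04, 6.47 and 7.82 CPM in mutants (log2 fold change 2.47, SE 0.23, FDR 2.9e-05), and *nspb-12* and *nspb-8* rose by 3.20 (FDR 0.0016) and 2.31 (FDR 0.019) on that scale. Of the 8 called nspc genes 7 stand in 2 runs on chromosome X, *nspc-16* to *nspc-19* (4 of 4 tested, bases 14523575 to 14529114) and *nspc-13* to *nspc-15* (3 of 3, bases 12357427 to 12361159). The other called one is *nspc-10* (1.20, FDR 0.0015), and *nspb-1* and *nspb-2* (log2 fold changes 1.92 and 2.26) are neighbours on chromosome IV; *nspc-10* and these neighbours were chosen after values were seen. Copies of such families resemble each other, so reads may have been divided between them by the quantification. Summed over the 24 genes the level was at 136, 148, 144 and 121 CPM in N2 and 334, 247 and 223 CPM in mutants. In mutant replicate 1, otherwise the mutant library nearest to N2, it was the highest. The number called lay between 10 and 12 in the 7 fits without 1 library, and with length offsets it was 15. At 20 °C 11 of 22 rose.

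Some cuticle and moult genes rose and some col collagens fell, and the medians of their lists were above 0. Over all genes tested 6.97% rose and 5.12% fell. In the list of 21 moult genes 3 rose, 1 of them called, none fell, 17 had a log2 fold change above 0 and the median was 0.28. The number of moult genes that rose was 1 or 2 in the 7 fits without 1 library. Hedgehog-related genes, which encode secreted proteins of the epidermis with roles in moulting, had a median of 0.75 over 22 genes, and 3 rose and 1 fell. *wrt-6* was called, at 0.934, 0.465, 0.981 and 0.0795 CPM in N2 and 1.61, 3.63 and 1.98 CPM in mutants (log2 fold change 1.94, FDR 0.028), a call lost without N2 replicate 2 or mutant replicate 2 or 3, while *grd-10* fell (-0.63, FDR 0.029). The median of 22 body shape collagens and their enzymes was 0.52, and *lon-3*, a collagen that sets body length, was the only one called (1.56, 0.930, 1.6 and 0.477 CPM in N2 and 4.03, 7.11 and 1.80 CPM in mutants, log2 fold change 1.90, FDR 0.035), in 1 of the 7 fits without 1 library. Of 107 col cuticle collagens 72 had a log2 fold change above 0 with a median of 0.35, yet 12 fell and 2 rose. Summed collagen RNA overlapped between the strains, at 57560.3, 61751, 64939 and 58305 CPM in N2 and 57050.5, 49866 and 57768 CPM in mutants. Among those that fell, the abundant *col-98*, chosen after values were seen, was at 947, 1122, 992 and 1054 CPM in N2 and 637, 526 and 638 CPM in mutants (log2 fold change -0.78, SE 0.08, FDR 1.4e-04); *col-158* was called lower (-2.09, FDR 0.012), but not without mutant replicate 2. Of 19 astacin metalloproteases, some of which shed the old cuticle, 5 rose, and those called were *nas-30* (2.15, FDR 0.019), *nas-4* (1.37, FDR 0.0047) and *nas-8* (1.09, FDR 0.019), of which *nas-4* held in all 7 fits and the others were lost without mutant replicate 2. *ptr-18*, 1 of 21 patched-related genes, was called higher (1.02, FDR 0.036) in 2 of the 7 fits. None of the 4 moult markers passed in edgeR's test (2 at an unadjusted p under 0.05, and 0 by DESeq2), with a median of 0.72 and summed levels of at 17.4, 10.04, 17.5 and 9.38 CPM in N2 and 23.8, 26.2 and 12.5 CPM in mutants. The part of developmental timing in these results was not tested; of the 3 larval timing markers, *lin-28* fell (-0.33, FDR 0.041) and the median was -0.01.

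**Figure D3:**
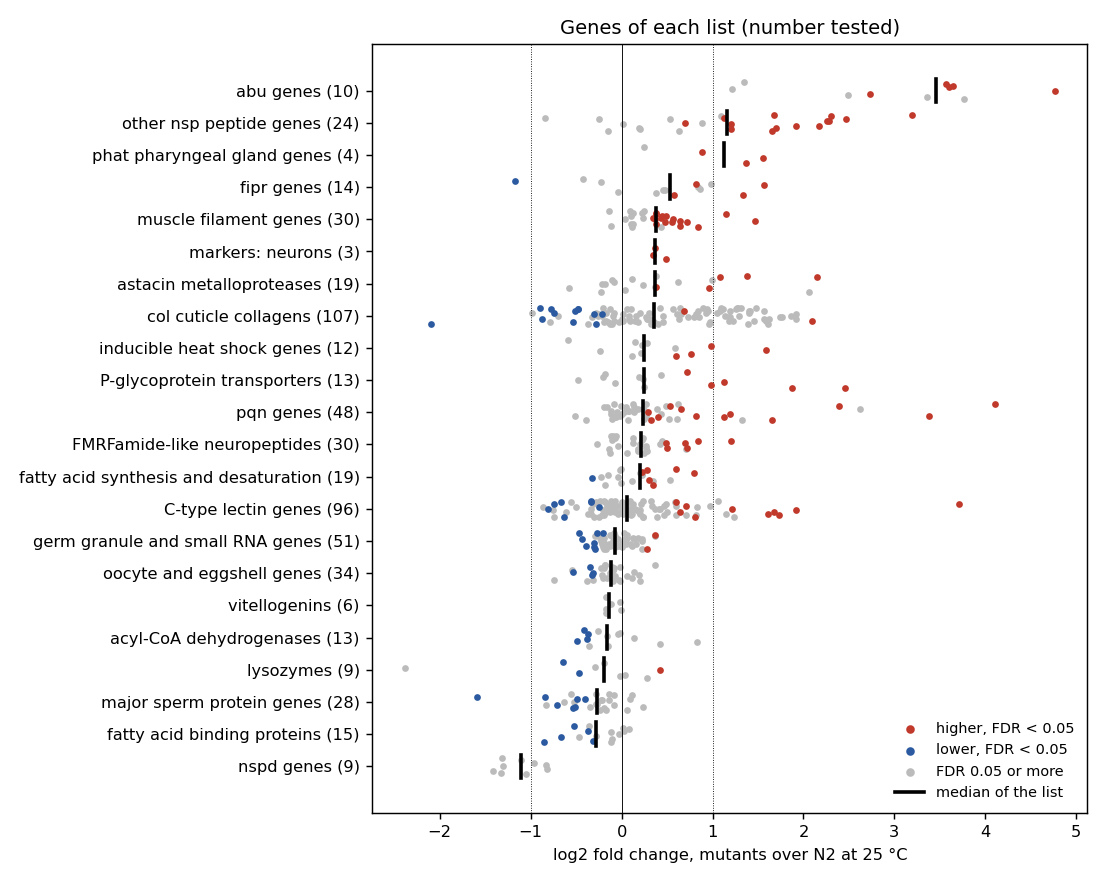
Log2 fold change of mutants over N2 at 25 °C (horizontal axis) of each gene tested in 22 gene lists, with the number tested in brackets and lists ordered by their median (black bars). Red and blue points passed an FDR of 0.05, grey points did not, and dotted lines mark a fold change of 2. The abu genes have the highest median, 3.46, and the nspd genes the lowest, -1.10, with no gene past the FDR.

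Among germline genes more fell than rose, nearly always by less than a fold change of 2. Of 51 germ granule and small RNA genes none was called, 8 fell and 2 rose, and the median was -0.08. Those that fell included *glh-4*, a germ granule RNA helicase, at 173, 169, 174 and 199.5 CPM in N2 and 135, 129.6 and 123 CPM in mutants (log2 fold change -0.47, SE 0.07, FDR 0.0018), and *wago-1*, an Argonaute (-0.39, FDR 0.0089). *rde-11* (0.36, FDR 0.047) and *alg-1* (0.28, FDR 0.041) rose. The fall of *glh-4* held in all 7 fits without 1 library, while the number that fell was 1 without mutant replicate 2 and 15 without mutant replicate 1. All 4 germline markers had log2 fold changes below 0, and *glh-1* passed (-0.30, FDR 0.025). Their summed level was at 1002, 1052, 1044 and 1125 CPM in N2 and 985, 834 and 839 CPM in mutants. Of 34 oocyte and eggshell genes 4 fell: *cpg-3*, an eggshell chondroitin proteoglycan (-0.54, FDR 0.0073), the RNA-binding *puf-3* (-0.35) and *puf-5* (-0.31), and the yolk receptor *rme-2* (-0.32). Only the fall of *cpg-3* held in all 7 fits. In the list of 24 meiotic chromosome axis and synapsis genes, *htp-1* fell (-0.43, FDR 0.01), though not without mutant replicate 3. Of 20 germline chromatin genes and of 6 vitellogenin genes none passed the FDR of edgeR's test (4 and 1 at an unadjusted p under 0.05, and 0 and 0 by DESeq2), with medians of -0.01 and -0.14. The yolk gene *vit-2*, chosen after values were seen, was at 22248, 19832, 18815 and 20887 CPM in N2 and 18666, 19894 and 21938 CPM in mutants (log2 fold change -0.02, FDR 0.89).

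Some sperm genes fell, and sperm lists differed among themselves and between mutant libraries. Of 28 major sperm protein genes, which make the cytoskeleton of crawling sperm, 7 fell, none rose, 24 had a log2 fold change below 0 and the median was -0.27. *msp-63* was called and was steady within each strain. *msp-63* was at 5.17, 6.23, 5.08 and 5.09 CPM in the 4 N2 libraries and at 1.79, 1.58 and 1.98 CPM in the 3 mutant libraries. For *msp-63* the log2 fold change was -1.59 (SE 0.21, FDR 5.9e-04), in all 7 fits. *msp-142* fell by 0.71 on that scale (FDR 0.037) in only 1 of them. Near-identical msp copies share reads, so values of single members are uncertain. All 9 nspd genes, a peptide family of sperm, had log2 fold changes below 0 with a median of -1.10, but none passed in edgeR's test (5 at an unadjusted p under 0.05, and 2 by DESeq2). *nspd-7*, chosen after values were seen, was at 30.4, 58.2, 57.3 and 54.3 CPM in N2 and 35.4, 8.69 and 16.8 CPM in mutants, where mutant replicate 1 lay within the range of N2 and the other 2 mutant libraries below it. Without mutant replicate 1 the nspd median was -1.72, 7 of 9 were called lower, and 19 major sperm protein genes fell. Of 12 ssp genes *ssp-31* (-0.54) and *ssp-34* (-0.54) fell, and of 23 spe genes none passed in edgeR's test (3 at an unadjusted p under 0.05, and 1 by DESeq2). The spe genes lay to the other side, 15 of 23 with a log2 fold change above 0 and a median of 0.06.

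The msp, nspd and ssp lists consist mostly of short genes, with median exonic lengths of 384, 216 and 330 bases, whereas the spe genes have a median of 1510. Short genes as a class had values below N2 in the same 2 libraries. The 887 tested genes with under 500 exonic bases had a median log2 fold change of -0.17, and their median deviation was -0.26 and -0.24 in mutant replicates 2 and 3, against 0.01 in mutant replicate 1 and -0.06 to 0.09 in N2. The 744 genes of 4000 bases or more had a median of 0.09, and 15.9% of them rose and 1.48% fell. Called lower genes had a median length of 887 bases, called higher genes 1295.5 and uncalled genes 1403. Of the 280 genes called lower without mutant replicate 1, 149 had under 500 bases. When offsets for exonic length were added to the fit, a choice made after seeing the data, the median of the major sperm protein genes became -0.09 and that of nspd genes -0.79, while abu genes (3.46), the 24 nsp genes without nspd (1.32) and muscle genes (0.27) kept their direction, and 241 of the 260 calls were shared. With these offsets 9 major sperm protein genes, 2 nspd genes and 1 ssp gene fell, against 7, 0 and 2 without them. Among all genes tested, 811 fell with the offsets and 692 without. The part of gene length, or of RNA fragment size, in the changes of short genes was not tested. At 20 °C the median of the genes under 500 bases was 0.23, of the opposite sign.

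**Figure D4:**
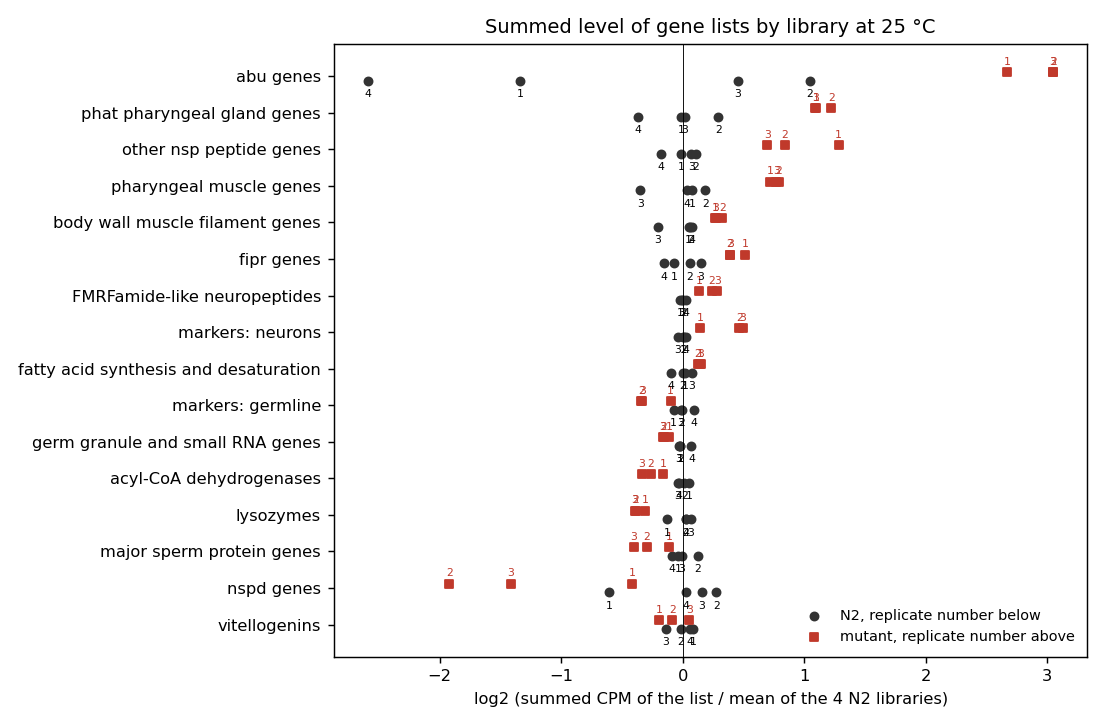
Log2 ratio of the summed CPM of 16 gene lists in each library to the mean of the 4 N2 libraries (horizontal axis), with N2 libraries as dark circles and mutants as red squares and replicate numbers beside them. The mutant libraries lie to the right of all N2 libraries for abu, phat, nsp (other than nspd) and muscle genes; for nspd genes mutant replicate 1 lies inside the range of N2.

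Intestinal genes for defence and digestion divided between rises and falls. Intestine markers did so as well: *elt-2*, the GATA factor of the intestine (0.65, FDR 0.015), and *asp-1* (0.30, FDR 0.03) rose, and *ges-1*, a gut esterase (-0.34, FDR 0.03), fell. C-type lectins are a family of secreted sugar-binding proteins, many of which answer to bacteria. Of 96 such genes tested 10 rose and 7 fell, against 6.97% and 5.12% of all genes tested. The 6 called were all higher, against 1.31% called higher among all genes tested. *clec-52* was at 6.41, 6.79, 5.08 and 5.40 CPM in the 4 N2 libraries and at 17, 22 and 20.02 CPM in the 3 mutant libraries. For *clec-52*, without overlap, the log2 fold change was 1.73 (SE 0.15, FDR 1.4e-05). *clec-60* (1.67, FDR 0.011) and *clec-28* (1.61, FDR 0.0069) were called at low levels, while the abundant *clec-65*, at 178, 169, 172 and 176 CPM in N2 and 137, 146 and 131 CPM in mutants (log2 fold change -0.33, FDR 0.0065), and *clec-85* fell (-0.64, FDR 0.0018). Of 9 lysozymes, *lys-1* and *lys-2* fell without overlap. *lys-2* was at 315, 391, 407 and 379 CPM in the 4 N2 libraries and at 253, 242 and 219 CPM in the 3 mutant libraries. For *lys-2* it was -0.64 (SE 0.09, FDR 8.0e-04) and for *lys-1* -0.46 (FDR 0.0016), whereas *lys-7* rose by 0.42 (FDR 0.0065), in all 7 fits each.

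Saposin-like genes, whose proteins act on membranes, split evenly, with 3 up and 3 down of 14: *spp-4* (0.63) and *spp-5* (0.34) rose, and *spp-14* (-0.40) and *spp-17* (-0.38) fell, the 4 in all 7 fits without 1 library. Gut proteases did likewise, where *cpr-1* (0.65, FDR 4.9e-04) and *asp-12* (0.85, FDR 0.0051) rose and *cpr-6* (-0.40, FDR 0.0033) and *asp-4* (-0.37, FDR 0.0083) fell. Of 14 fipr genes, short secreted peptides named for induction by fungi and listed after values were seen, *fipr-2*, at 40.0, 36.4, 32.8 and 32.3 CPM in N2 and 76.3, 112 and 127 CPM in mutants (log2 fold change 1.57, SE 0.17, FDR 0.0015), and its neighbour *fipr-1* (1.34, FDR 0.0097) were called higher and *fipr-22* (-1.17, FDR 0.017) lower. *cnc-8*, 1 of 3 caenacin peptides, was called lower (-1.38, FDR 0.038) in 2 of the 7 fits. Of 6 irg genes, *irg-2* fell (-0.93, FDR 0.041). None of 16 pals genes, which respond to intracellular pathogens, passed in edgeR's test (2 at an unadjusted p under 0.05, and 0 by DESeq2). Of 51 transthyretin-related genes 3 rose, including *ttr-21* (0.76) and *ttr-34* (0.60), and 6 fell, including *ttr-45* (-0.54) and *ttr-23* (-0.89). Without mutant replicate 1, 10 fell, where 13.3% of all genes tested fell. The median of the family was -0.09, and 0.00 with offsets for gene length.

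Several genes of fatty acid breakdown fell, and several of fatty acid synthesis rose. *acs-3*, an acyl-CoA synthetase that activates fatty acids, was the called gene of the 20 in its family. *acs-3* was at 11.1, 9.30, 7.76 and 9.85 CPM in the 4 N2 libraries and at 1.88, 2.61 and 1.72 CPM in the 3 mutant libraries. For *acs-3*, without overlap, the log2 fold change was -2.19 (SE 0.21, FDR 3.3e-05), and the call held in all 7 fits. Of 13 acyl-CoA dehydrogenases, which take the first step of beta-oxidation in mitochondria, 4 fell and none rose, including *acdh-11* (-0.49, FDR 0.0083) and *acdh-12* (-0.42, FDR 0.0051). Of 7 acyl-CoA oxidases, the peroxisomal counterparts, 3 fell, with *acox-3* at 34.4, 29.9, 34.2 and 35.6 CPM in N2 and 23.9, 21.6 and 19.6 CPM in mutants (log2 fold change -0.63, SE 0.11, FDR 0.0028) and *acox-1.3* at -0.59 (FDR 0.0018). The hydratases *ech-4* (-0.32) and *ech-1.2* (-0.27) and the peroxisomal enzymes *daf-22* (-0.39, FDR 0.0096) and *maoc-1* (-0.37, FDR 0.023) fell too, and *hacd-1* rose (0.67, FDR 0.015). Summed dehydrogenase RNA was at 848, 825, 793 and 801 CPM in N2 and 730.2, 682 and 646 CPM in mutants. The number of dehydrogenases that fell was 2 without mutant replicate 2.

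Of 19 genes of fatty acid synthesis and desaturation 6 rose and 1 fell, with a median of 0.20. The elongases *elo-1* (0.34, FDR 0.011) and *elo-5* (0.60, FDR 0.024) rose and the desaturase *fat-4* fell (-0.33, FDR 0.0089). The count of rises was 0 without mutant replicate 2 or mutant replicate 3 and 1 without N2 replicate 1 or N2 replicate 2, and only the fall of *fat-4* held throughout. Of 15 fatty acid binding proteins 5 fell, including *lbp-5* (-0.86, FDR 0.016) and *lbp-2* (-0.31, FDR 0.019), none without mutant replicate 2 or 3. Of 13 lipases 3 rose, including *lipl-2* (0.33) and *lips-10* (0.77), and 4 fell. Among 27 short-chain dehydrogenases *dhs-26* was called lower, at 3.49, 1.58, 1.69 and 3.73 CPM in N2 and 0.716, 0.711 and 0.172 CPM in mutants (log2 fold change -2.3, SE 0.47, FDR 0.0093), and *dhs-5* rose (0.67, FDR 0.036).

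Among genes that clear foreign compounds, some P-glycoprotein genes rose and a few glutathione transferase genes fell. The shares over all genes tested were 6.97% for rises and 5.12% for falls. P-glycoproteins pump small molecules out of cells, and of 13 tested 5 rose, 3 of them called, and none fell. *pgp-1* was at 0.871, 1.30, 1.87 and 0.874 CPM in the 4 N2 libraries and at 5.28, 6.71 and 7.90 CPM in the 3 mutant libraries. For *pgp-1* the log2 fold change was 2.46 (SE 0.27, FDR 1.5e-04), with no overlap. The neighbours *pgp-8* (1.87, FDR 5.9e-04) and *pgp-6* (1.13, FDR 0.0037) on chromosome X were also called, and only the call of *pgp-6* was lost in a fit without 1 library, mutant replicate 2. *pgp-14*, a transporter of the pharynx chosen after values were seen, rose without overlap, at 21.8, 23.6, 18.8 and 17.6 CPM in N2 and 36.9, 46.7 and 38 CPM in mutants (log2 fold change 0.99, FDR 3.6e-04). Of 46 cytochrome P450 genes 5 rose, and the called ones, *cyp-35A3* (1.78), *cyp-34A10* (1.17) and *cyp-36A1* (1.06), each lost their call in 3 or more of the 7 fits. Of 53 UDP-glucuronosyltransferases 3 rose and 5 fell. *ugt-52* was called lower, at 16.4, 16.9, 12.8 and 18.8 CPM in N2 and 5.91, 5.92 and 3.69 CPM in mutants (log2 fold change -1.64, SE 0.19, FDR 1.9e-04), in all 7 fits, *ugt-33* lower (-1.54, FDR 0.024) and *ugt-63* higher (1.36, FDR 0.026). Of 31 glutathione transferases, with a median of -0.08, 4 fell, *gst-22* (-1.32, FDR 0.045) and *gst-29* (-1.09, FDR 0.009) being called, and none without mutant replicate 3. Of 166 nuclear hormone receptors 10 rose and 1 fell, shares below those of all genes tested (6.97% and 5.12%); the rises included *nhr-34* (0.64, FDR 0.0042) and *nhr-3* (0.91, FDR 0.0064), with *nhr-181* falling (-0.98, FDR 0.045).

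Heat shock and longevity genes gave few calls, but 4 of 12 inducible heat shock genes rose, against 6.97% of all genes tested. None of the 12 fell, 10 had a log2 fold change above 0, and 1, *hsp-70*, was called. The number that rose lay between 2 and 7 in the 7 fits without 1 library. Summed over the 12 genes the level was at 224, 234, 245 and 217 CPM in N2 and 266, 252 and 286 CPM in mutants, without overlap. Of the N2 mean of 230 CPM, *hsf-1*, which belongs to the list, accounted for 63.2, *hsp-16.2* for 1.30 and *hsp-70* for 0.605. The sum therefore says little about *hsp-16.2* and *hsp-70*. *hsp-70* was at 0.560, 0.651, 0.892 and 0.318 CPM in the 4 N2 libraries and at 2.06, 1.42 and 1.98 CPM in the 3 mutant libraries. For *hsp-70* the log2 fold change was 1.59 (SE 0.38, FDR 0.017), the groups did not overlap, and the call was lost without mutant replicate 3. Neither *hsp-16.2* (1.18, 1.02, 1.25 and 1.75 CPM in N2 and 1.52, 2.13 and 0.859 CPM in mutants, FDR 0.72) nor the heat shock factor *hsf-1* (59.4, 67.3, 59.6 and 66.4 CPM in N2 and 60.2, 45.6 and 55.1 CPM in mutants, FDR 0.12), both chosen after values were seen, passed. Of 31 constitutive chaperones 5 rose and 1, *hsp-90*, fell (-0.28, FDR 0.033), the rises including *hsp-3*, the chaperone BiP of the endoplasmic reticulum (0.36, FDR 0.0097), and *hsp-25* (0.33, FDR 0.015). Of 27 genes downstream of the insulin pathway factor DAF-16 or of oxidative stress 5 rose and 6 fell. *dod-21* and *dod-23* were called lower. *dod-21* was at 103, 101, 106 and 79.7 CPM in the 4 N2 libraries and at 45, 48.9 and 38.1 CPM in the 3 mutant libraries. For *dod-21* the log2 fold change was -1.14 (SE 0.11, FDR 9.6e-05), and for *dod-23* -1.30 (FDR 0.0036), both in all 7 fits. *daf-16* itself rose (0.42, FDR 0.0078), as did *dod-6* (0.77, FDR 6.5e-04) and *dod-24* (0.31, FDR 0.0098). Among 14 heterochronic genes, which time larval stages, *mab-10* (0.51, FDR 0.035) and *lin-66* (0.29, FDR 0.035) rose. Of 29 histone genes, whose RNAs largely lack a poly(A) tail, *his-12* was called lower (-1.79, FDR 0.017), but not without mutant replicate 2 or 3.

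Among the genes named for size or level alone, *W08E12.4* showed the largest fitted rise. It had no count in 3 of the 4 N2 libraries and 0.558 CPM in N2 replicate 2, and stood at 3.76, 4.11 and 5.76 CPM in mutants (log2 fold change 5.13, SE 0.68, FDR 0.0017), a fit that depends on how zeros are treated. The abundant ones were the galectin *lec-6*, at 307, 353, 371 and 397 CPM in N2 and 239, 142.1 and 153 CPM in mutants (log2 fold change -1.001, FDR 0.028), and *ZC247.1*, at 113, 111, 94.3 and 92.7 CPM in N2 and 148, 255 and 262 CPM in mutants (log2 fold change 1.11, FDR 0.026), in both of which mutant replicate 1 was nearest to N2 and whose calls were lost in 5 of the 7 fits. The other large falls were *F53F4.18* (-1.93), *Y68A4A.13* (-1.82), *F43G6.7* (-1.81) and *Y37E11B.7* (-1.72), in which mutant replicate 1 was the highest mutant library, and each call was lost without mutant replicate 2 or 3. Chosen after values were seen, *srsx-25*, a predicted chemoreceptor gene, was at 4.67, 2.79, 4.64 and 3.18 CPM in N2 and 0.358, 0.0790 and 0.515 CPM in mutants (log2 fold change -3.58, SE 0.43, FDR 2.9e-04), and the tyrosinase gene *tyr-2* at 22.7, 22.3, 23.4 and 14.1 CPM in N2 and 54.5, 60.1 and 49.9 CPM in mutants (log2 fold change 1.41, SE 0.15, FDR 5.0e-04), both in all 7 fits. *prp-31*, a splicing factor gene chosen likewise, rose at 84.3, 78.6, 74.7 and 81.6 CPM in N2 and 156, 141.7 and 128 CPM in mutants (log2 fold change 0.83, FDR 3.2e-05).

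Called genes were spread over all 6 nuclear chromosomes. On chromosome X 43 of 1793 genes tested (2.4%) were called higher and on chromosome V 47 of 2608 (1.8%), against between 0.815% and 1.22% on the other 4. Lower calls ran from 0.306% on chromosome I to 0.92% on chromosome V. Within 10 kb of another gene called in the same direction lay 33 of the 176 higher genes with a position, in 13 clusters, and 8 of the 83 lower genes. How many would lie so close for genes drawn from all those tested was not counted, so whether called genes cluster cannot be told from this. Beside the pqn and nspc runs, a cluster of 3 was *T16G1.7*, *T16G1.6* and *T16G1.4* on chromosome V (bases 12932941 to 12941847, 3 of 5 tested), chosen after values were seen, with log2 fold changes of 1.30, 2.04 and 2.27.

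The same genes were then looked up in the 20 °C libraries, where with the FDR alone 7.71% of 13127 genes tested rose and 5.77% fell. Of the 177 genes higher at 25 °C 146 were tested at 20 °C, where 137 had the same sign and 42 passed the FDR in the same direction, and their median log2 fold change was 0.67 there and 1.38 here. Of the 83 lower genes 70 were tested at 20 °C, 49 had the same sign, 16 passed in the same direction, and the medians were -0.33 and -1.17. None passed in the opposite direction. Because the genes were selected at 25 °C, larger values at that temperature follow from the choice. The difference itself was tested as an interaction of genotype and temperature in a fit over the 15 libraries, in which 205 of 14000 genes (1.46%) passed an FDR of 0.05, with a difference above 0 in 0.743% and below 0 in 0.721%. Growth time differed along with temperature, so that effects of the 2 cannot be told apart. The number that passed was 12 when mutant replicate 3 at 25 °C was left out, and 1604 when mutant replicate 4 at 20 °C was. Among the 260 called genes 12 passed (4.62%), 6 in each direction.

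The smallest interaction p-value among called genes was that of *Y119D3B.13*. *Y119D3B.13* was at 7.34, 6.97, 9.09 and 7.63 CPM in the 4 N2 libraries and at 41.2, 28.7 and 28.4 CPM in the 3 mutant libraries. Its log2 fold change was 2.08 at 25 °C (SE 0.15, FDR 4.3e-06) and 0.20 at 20 °C (interaction FDR 5.8e-05). *nspc-15* was at 0.47 at 20 °C (interaction FDR 0.0092) and *F43C9.1* at 1.80 and 0.42 (interaction FDR 0.023). *msp-63* (-0.24 at 20 °C, interaction FDR 0.028) and *dod-23* (-0.26, interaction FDR 0.036) were the falls of this kind among the named genes with *F53F4.18* and *bath-26*. The interaction did not pass for either of the factors with the clearest falls: *C01B10.8* was at -3.07 and *eif-2D* at -1.76 at 20 °C, with interaction FDRs of 0.055 and 0.67. Nor did it for *mup-2* (1.74 at 20 °C, interaction FDR 0.054) or *clec-52* (2.59 at 20 °C, interaction FDR 0.07). For the abu genes the 20 °C median was 0.65 over 9 genes with none past the FDR, but no abu gene passed the interaction test. For oocyte and eggshell genes the 20 °C data had the larger shift, with 25 of 34 falling there and 4 of 34 here, and 4 genes passed the interaction test.

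**Figure D5:**
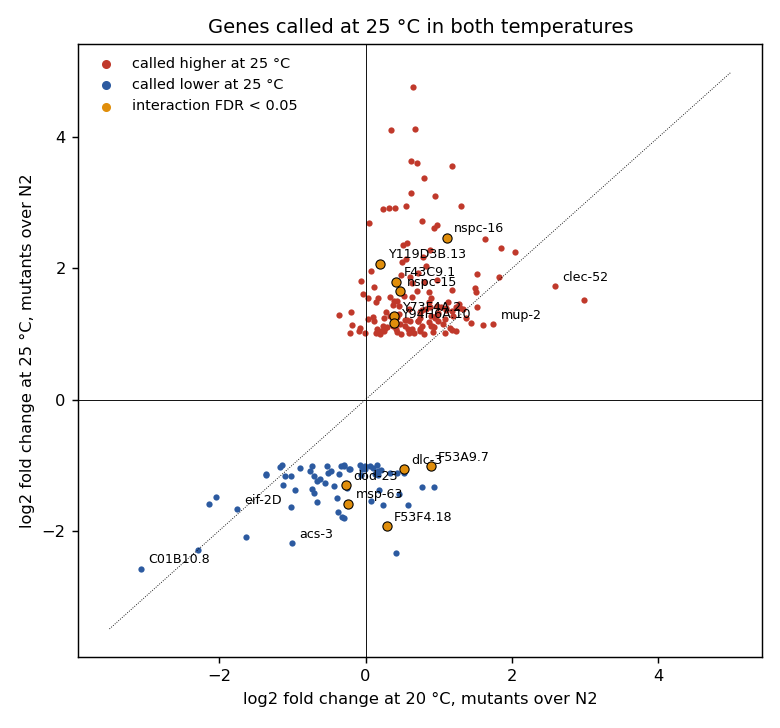
Log2 fold change of mutants over N2 at 25 °C (vertical axis) against 20 °C (horizontal axis) for genes called at 25 °C and tested at both temperatures, except *fbxa-215*, which lies outside the axes. Orange points passed an interaction FDR of 0.05 and the dotted line marks equal values. Most red points lie to the right of 0 and above the dotted line, and *eif-2D* lies close to it.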

How the data were processed

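Young adult poly(A) RNA was sequenced as paired ends from libraries that do not keep strand, so reads of overlapping and antisense genes cannot be told apart. The authors trimmed the reads with Trimmomatic (version 0.39), estimated transcript abundance with Salmon (version 1.5.1) and summed it per gene; the deposited tables hold these estimated counts for 21882 genes, without normalization. WBcel235 is the build named, and the transcriptome release is not given in the sources used here. The authors also deposited tables of their DESeq2 comparison with fold changes, adjusted p-values and log2 expression values; only the gene symbols were taken from them. No column was left unassigned (0).

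Rounded counts entered edgeR (version 4.0.16; R version 4.3.3). Genes were kept by filterByExpr (minimum count 10, total 15), libraries scaled by TMM, and mutants compared with N2 by the robust quasi-likelihood F-test, with Benjamini-Hochberg adjustment over 13510 genes. Called genes had an FDR under 0.05 and changed by over 1 on the log2 scale in either direction. Standard errors, derived from the F statistic, are approximate. Where text gives a bracketed value after a gene, it is its log2 fold change. The interaction came from 1 fit over 15 libraries. DESeq2 (version 1.42.0), glmTreat, other normalizations and filters, a replicate block and leaving out each library were alternatives; offsets for exonic length, following each library's trend, were added after seeing the data. Length bins used log2(CPM + 0.5) relative to the N2 mean. Gene positions are from Ensembl release 115 (21714 genes matched). The tests were first checked on simulated data. No 2 libraries agreed within sampling noise.

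The comparison, gene lists and rule for named genes were chosen with earlier results of these data known. The rule took the genes the study marks; the 8 largest rises and 8 largest falls without overlap and with a mean of at least 50 counts; the 3 most abundant called genes in each direction; of each list up to 3 called genes in each direction with a mean of at least 20 counts, or, where none was called, up to 2 past the FDR; and the 3 smallest interaction p-values. No sequence of any gene was used here.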

Additional observations from a re-analysis of the deposited data

Results flagged for a closer look

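In 18 of the 191 genes named here, the highest or lowest of the 4 N2 libraries at 25 °C stood apart from the other 3 by Dixon's criterion, which chance meets in about 1 in 20 groups. N2 replicate 2 was the high one in *abu-8* (2.70 CPM, against 0.311 to 0.477), *T06E4.9* (1.39 CPM, against 0.0622 to 0.0892), *W08E12.4* (0.558 CPM, against 0), *msp-142* (75.7 CPM, against 64.3 to 64.7) and *msp-63* (6.23 CPM, against 5.08 to 5.17). N2 replicate 3 was the low one in the muscle genes *clik-1* (914 CPM), *unc-15* (1159 CPM) and *unc-54* (2504 CPM, against 3292 to 3361) and in *dod-6* (32.4 CPM, against 41.9 to 42.7), and the high one in *ins-7* (26.5 CPM) and *C06E8.5* (1.07 CPM, against 0.651 to 0.715). N2 replicate 4 was low in *tyr-2* (14.1 CPM, against 22.3 to 23.4), *fbxa-155* (1.35 CPM) and *H43E16.1* (5.40 CPM, against 7.90 to 8.02) and high in *glh-4* (199.5 CPM, against 169 to 174). N2 replicate 1 was low in *nspd-7* (30.4 CPM, against 54.3 to 58.2), *rpl-11.1* (1215 CPM) and *rpl-25.2* (721 CPM). Their causes were not tested.

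For 19 named genes the effect of the mutation differed between 25 and 20 °C in the interaction test (FDR under 0.05, edgeR's quasi-likelihood test over 15 libraries). The difference, 25 minus 20 °C on the log2 scale, was positive in *Y119D3B.13* (1.89), *F43C9.1* (1.40), *nspc-16* (1.38), *nspc-15* (1.20), *cpr-1* (1.16), *Y73F4A.2* (0.88), *lin-66* (0.67) and *hsp-3* (0.43). It was negative in *F53F4.18* (-2.20), *bath-26* (-1.91), *msp-63* (-1.34), *clec-85* (-1.31), *dod-23* (-1.03), *acox-3* (-0.69), *clec-65* (-0.58), *lbp-2* (-0.57), *asp-4* (-0.55), *maoc-1* (-0.50) and *fat-4* (-0.38). In *clec-85* the 2 temperatures passed the FDR in opposite directions, with log2 fold changes of -0.64 at 25 °C and 0.69 at 20 °C. *lin-66* did so as well, with 0.29 and -0.36.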

How the results depend on the processing

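Against 260 genes called, the number was 1634 with the FDR alone, 148 with at least 10 counts in every library, 17 with glmTreat and between 127 and 524 when 1 library was left out. Library size alone, RLE normalization, DESeq2, no filter, 1 fit over 15 libraries, unrounded counts, protein-coding genes alone and length offsets gave between 198 and 294. The share of higher calls was 68.1% as reported, 73.8% with library size alone and 46.6% without mutant replicate 1. The replicate block left 123 calls, 113 of them shared. Deviations of same-numbered libraries had correlations of -0.14, -0.10 and -0.08. With so few libraries these values cannot tell whether equal numbers mark a shared culture or day. The labels do not say, and the libraries were treated as unpaired. For the interaction, 205 genes passed, 177 with RLE normalization, 338 with at least 10 counts in every library, 1032 with DESeq2, 20 with the replicate block and between 12 and 1604 when 1 library was left out. Of the 191 named genes, those that lost their call or FDR numbered 0 with RLE normalization, 8 with DESeq2, 8 with library size alone, 12 without a filter, 169 with glmTreat, 54 in 1 fit over 15 libraries, 101 with the replicate block and between 8 and 93 without 1 library. Signs changed only for genes that had not passed: *vit-2* (0.010 with library size alone, -0.092 to 0.033 without 1 library, above 0 without N2 or mutant replicate 1), *hsp-16.2* (-0.134 to 0.484, below 0 without mutant replicate 2) and *Y45F10C.4* (-0.164 to 0.194, below 0 without mutant replicate 1). Causes were not tested. With 3 and 4 libraries, small changes of genes with few counts were at the limit of what could be seen.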

Other observations

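Some of the steadiest differences lay in genes outside every list, taken up here for their low FDR after values were seen. *C06E8.5* was at 0.685, 0.651, 1.07 and 0.715 CPM in N2 and 5.996, 5.37 and 6.87 CPM in mutants (log2 fold change 2.96, SE 0.25, FDR 1.4e-05). *H43E16.1* was at 7.90, 7.99, 8.02 and 5.40 CPM in N2 and 22.7, 24.6 and 30.2 CPM in mutants (log2 fold change 1.82, FDR 1.4e-05). *Y73F4A.2* was at 22.5, 24.7, 19.2 and 19 CPM in N2 and 45.6, 59.5 and 49.1 CPM in mutants (log2 fold change 1.27, FDR 3.1e-05). In all 3 every mutant library exceeded every N2 library, and the calls held in all 7 fits that left out 1 library in edgeR's test. *C08F11.13* was lower to a like degree, at 82.3, 68.7, 79.3 and 101 CPM in N2 and 35.5, 30.6 and 26 CPM in mutants (log2 fold change -1.43, FDR 3.4e-04), and overlaps another gene on its strand, so its reads may be shared. *daf-9*, the cytochrome P450 that makes the steroid hormone dafachronic acid, was called higher at a low level, 0.747, 0.930, 0.892 and 0.874 CPM in N2 and 1.61, 1.82 and 1.89 CPM in mutants (log2 fold change 1.05, FDR 0.041), but the call was lost in 6 of the 7 fits.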
